A study of Bos taurus with 138 samples.

Results

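The genes described here are those of the cytosolic ribosomal proteins, the structural proteins of the ribosome that translates nuclear-encoded mRNA. All gene symbols starting with RPL or RPS followed by a digit were taken, together with RPLP0, RPLP1, RPLP2 and RPSA, and the 10 ribosomal protein kinases of the RPS6K type were left out. This gave 83 of the 16706 genes measured. They comprise 74 genes for the standard proteins, named core genes below (43 of the large subunit and 31 of the small subunit), 8 duplicate copies of core genes or of their relatives (RPL3L, RPL7L1, RPL10L, RPL22L1, RPL26L1, RPL36AL, RPS27L and RPS4Y1), and RPS19BP1, whose product is not a ribosomal protein but a nucleolar partner of RPS19. RPL22, RPL31, RPL41, RPL39L and RPS4Y2 were not analysed here.

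Each ribosome holds a single copy of nearly every one of these proteins, so cells make them in matched amounts. Most of the mRNAs start with a run of pyrimidines, the 5′ terminal oligopyrimidine (TOP) motif. Through it, and through the binding protein LARP1 and the kinase mTOR, they move as a group between ribosome-free particles and polysomes when growth conditions change. A fully grown oocyte carries a large store of ribosomes and maternal mRNAs, transcribes little, and depends on translational control until the embryo activates its own genome, which in cattle occurs mainly around the 8-cell stage.

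Sucrose gradient fractions and unfractionated RNA were sequenced from *Bos taurus* oocytes and embryos at 6 developmental stages. The groups were germinal vesicle (GV) oocytes taken from slaughterhouse ovaries, metaphase II (MII) oocytes matured in vitro, and embryos fertilized and cultured in vitro to the 2-cell, 8-cell, morula and blastocyst stages. All groups had received cycloheximide, which holds ribosomes on mRNA, before collection, and each library came from a pool of oocytes or embryos whose number the sources give differently. Each stage had 2 gradients (A and B) of 10 fractions and 3 transcriptomes (A, B and C), which makes 120 fraction libraries and 18 transcriptomes. Following the study, F1 and F2 hold free RNA, F3 to F5 monosomes, F6 and F7 the intermediate zone and F8 to F10 polysomes. The study repeated the fractionation, calls the repeats biological replicates, and took the oocytes and embryos for the transcriptomes from the batches that were fractionated. Which transcriptome shares a batch with which gradient was not stated.

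Total counts ranged from 1229382 to 17342859 per library (median 10339169). Every library was amplified on its own, so a level in CPM, the count scaled to a common library total, is a share of that library's mRNA. How much RNA a fraction or an embryo held was not recorded, and in pooled samples fewer cells carrying an mRNA cannot be told apart from less of it in each cell. Markers of the transcriptomes followed the stage names. The summed level of 9 oocyte markers in the transcriptomes had a median of 20022 CPM at GV, 524 CPM at the 8-cell stage and 57.8 CPM in blastocysts, where 7 trophectoderm and inner cell mass markers summed to 5527 CPM (median of 3). Every 8-cell fraction held more of the oocyte markers than any 8-cell transcriptome (406 to 900 CPM). Their median was 9315 CPM in F3 to F5 and 2844 CPM in F8 to F10. How this bears on comparisons of 8-cell fractions with transcriptomes was not tested. The 8-cell transcriptomes also carried all 8 markers of mesenchymal cells, which summed to 17446, 3480 and 2948 CPM in A, B and C. These markers summed to 64.1, 101 and 129.9 CPM in MII transcriptomes A, B and C. At GV they were at 2.01 to 4.07 CPM, and at the 2-cell stage at 4.45 to 6.19 CPM. Summed levels of 11 cumulus and granulosa markers had medians of 582 CPM at GV, 643 CPM at MII and 453 CPM at the 2-cell stage. The highest of them was STAR at GV and the 2-cell stage and HAS2 (165 CPM) at MII. Their part in the transcriptome changes into and out of MII was not tested. Several fractions stood apart. F10 of MII gradient B and F6 of 2-cell gradient A had far more ribosomal protein mRNA than their neighbours. Fewer genes were detected in them, 7396 against 11341 in F10 of MII gradient A and 10655 against 12883 in F6 of 2-cell gradient B. Their median correlation with the other fractions of the stage was 0.655 against 0.853, and 0.757 against 0.914. Morula gradient A had a higher share of ribosomal protein mRNA than gradient B in every zone. Salmon had split reads between near-identical sequences: 46.8% of the members' values were not whole numbers, against 11.7% over all genes, and 34 members had such values in over 50% of the libraries. Levels of those genes can hold reads of copies elsewhere in the genome.

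The ribosomal protein mRNAs as a family were scarce in oocytes and 2-cell embryos and abundant from the 8-cell stage on. In the transcriptomes the 74 core genes took 1.23 ± 0.217% of counts at GV, 0.822 ± 0.172% at MII, 0.471 ± 0.0414% at the 2-cell stage, 4.75 ± 0.743% at the 8-cell stage, 6.32 ± 0.528% in morulae and 9.07 ± 0.957% in blastocysts (mean ± SD, n = 3). The 3 replicates were 1.04, 1.47 and 1.18% at GV, 0.515, 0.433 and 0.464% at the 2-cell stage, and 3.999, 5.49 and 4.78% at the 8-cell stage, so the 2-cell and 8-cell values did not overlap. The family's counts, which also depend on gene length, were spread over its genes differently at each stage. RPSA, the laminin receptor and small subunit protein, took 10.5% of the family's counts at the 2-cell stage, when the 10 highest genes held 52.6% of them, while in blastocysts the 10 highest held 24.9%.

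Within the gradients the free RNA fractions held on average a larger share of ribosomal protein mRNA than the monosome fractions at every stage, and the polysome fractions gained on the monosomes at some stages only. The core share in F1 and F2, F3 to F5, F6 and F7, and F8 to F10 was 1.91, 0.535, 0.737 and 0.985% at GV (means of 2 gradients). At MII the corresponding values were 4.05, 1.08, 1.06 and 1.25%, and at the 2-cell stage they were 1.46, 0.518, 0.775 and 0.660%. At the 8-cell stage the order changed, with 4.27, 1.66, 3.85 and 5.50%: the polysome fractions were the highest of the 4 zones. Morulae had 10.8, 8.03, 9.22 and 8.47% and blastocysts 12.05, 11.7, 13.7 and 10.9%, a nearly level profile. The 2 gradients were far apart in morulae, where F8 to F10 held 11.7% in A and 5.20% in B, and close at the 8-cell stage, where they held 5.37 and 5.62%.

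**Figure D1:**
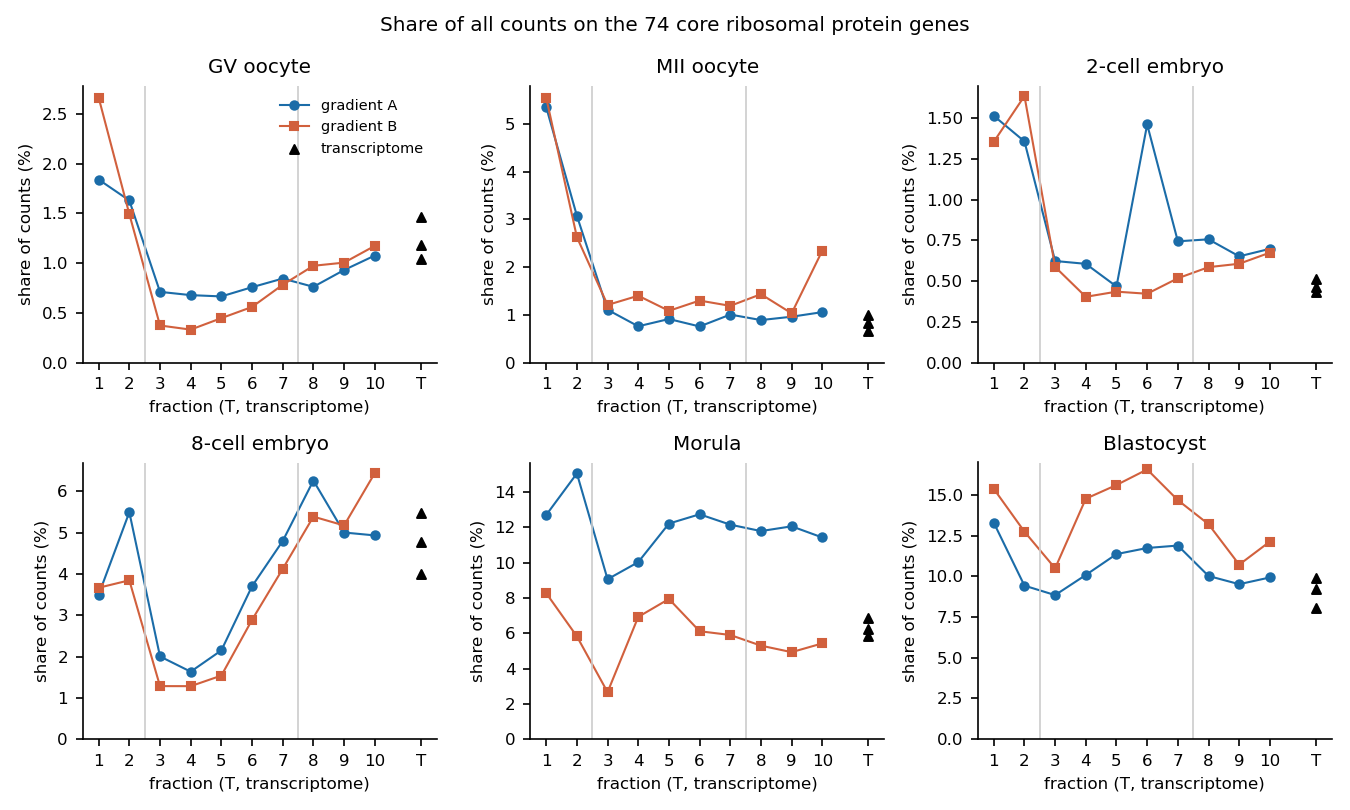
Share of all counts taken by the 74 core ribosomal protein genes (percent, y axis) in fractions F1 to F10 and in the transcriptomes (T) of each stage, 1 panel per stage, points being single libraries of gradients A and B or transcriptome replicates. The 8-cell panel climbs from 1.66% in F3 to F5 to 5.50% in F8 to F10, whereas in the other panels the first 2 fractions or the middle of the gradient are highest.

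Gene by gene, the same profile held for most of the family at the 8-cell stage. The level in F8 to F10 exceeded that in F3 to F5 in both gradients for 71 of the 74 core genes, with a median fold of 3.45 in A and 5.43 in B. At GV this was so for 53 genes (median fold 1.49 and 3.69), at MII for 45 (1.23 and 1.34), at the 2-cell stage for 48 of 73 (1.35 and 1.54), in morulae for 31 (1.27 and 0.969) and in blastocysts for 26 (0.935 and 1.02). The free RNA fractions exceeded F3 to F5 in both gradients for 73 genes at GV, 65 at MII, 69 of 73 at the 2-cell stage, 67 at the 8-cell stage, 56 in morulae and 55 in blastocysts. These counts were made for core genes only, so they have no share over all genes to be set against.

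Whether an mRNA moved toward heavier fractions was tested per gene and stage with Spearman's rho between fraction number and level over F3 to F10 (16 libraries of 2 gradients, two-sided permutation test with 100000 permutations, adjusted p over all genes with a mean of at least 1 CPM). A gene with an adjusted p below 0.05 is called rising or falling below, meaning along the gradient. Fractions of a gradient come from a single lysate, so the 16 libraries are not separate samples.

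At GV, 49 core genes rose toward the polysomes and 2 fell, where 18.1% of all genes tested rose and 18.6% fell. RPL35A, a large subunit protein mutated in some patients with Diamond-Blackfan anaemia, had the highest rho (rho = 0.947, adjusted p = 0.000242). Its level in gradient A was 23.6, 26.6, 25.9, 40.3, 51.4, 52.3, 70.9 and 86.8 CPM in F3 to F10, and in gradient B it was 7.92, 10, 20.04, 34.6, 62.8, 78.8, 104 and 118 CPM. F8 to F10 lay above F3 to F5 in each gradient, and F1 and F2, at 43.1 to 59.4 CPM, also lay above F3 to F5. RPS13 (rho = 0.929, adjusted p = 0.000347) and RPL32 (rho = 0.929, adjusted p = 0.000242) followed. RPS13 rose from 44.3 to 121 CPM between F3 and F10 of gradient A and from 14.5 to 217 CPM in gradient B. The rise was steeper in gradient B, and only 12 core genes rose when gradient A was tested alone, against 47 with gradient B alone.

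Among the 2 core genes that fell at GV was RPSA, a small subunit protein. RPSA (rho = −0.598, adjusted p = 0.0465) was highest in F2, at 2469.9 and 2814 CPM, and went from 829.7 and 489.7 CPM in F3 to 392 and 353 CPM in F10. Among the duplicates RPS4Y1, a copy of the small subunit gene RPS4X, fell as well (rho = −0.633, adjusted p = 0.0308): it was at 571 to 717 CPM in F2 and at 70.5 to 174 CPM in F8 to F10. With gradient B alone none of the core genes was called falling, and with gradient A alone 1 was.

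At MII few core genes were called in either direction. The permutation test called 8 core genes rising and 7 falling, against 7.29 and 12.3% of all genes, which is 10.8 and 9.46% of the core and near what the whole table shows. RPL27, a large subunit protein, had the highest rho (rho = 0.905, adjusted p = 0.000855), going from 22.9 to 114 CPM in A and from 32.9 to 226 CPM in B between F3 and F10. RPS2, a small subunit protein at the mRNA entry channel, rose from 132 to 594 CPM in A and from 166 to 615 CPM in B (rho = 0.858, adjusted p = 0.00210). RPL26L1, the copy of RPL26, also rose (rho = 0.817, adjusted p = 0.00390). The F10 values of gradient B come from the library with few genes detected. Without that library, a setting chosen after seeing the data, these 3 mRNAs were still called rising. The falling genes included RPL17 (rho = −0.870, adjusted p = 0.00179) and RPS4X (rho = −0.858, adjusted p = 0.00193). RPL17, at the exit of the peptide tunnel, went from 318 to 81.5 CPM in A and from 357 to 172 CPM in B. In F10 of gradient B, RPS4X stood at 4.45 CPM, far below its 119 CPM in F9, while 55 of the 74 core genes peaked there. RPL4, RPL5, RPL7 and RPS6 fell as well. These 6 of the 7 falling genes had risen at GV, as had 49 of the 74 core genes. The difference between the stages was not tested for single genes, and they were picked out after their values were seen. With gradient B alone none of the 8 rising core genes was called, and either gradient alone gave 1 falling core gene.

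At the 2-cell stage 14 of 73 core genes rose and 7 fell (10.7 and 9.88% of all genes). RPS2 was again among the highest (rho = 0.846, adjusted p = 0.00370): it went from 72.3 and 71.7 CPM in F3 to 226 and 227 CPM in F10. RPS16 (rho = 0.811, adjusted p = 0.00617), a small subunit protein, and RPS19BP1 (rho = 0.799, adjusted p = 0.00700) followed. RPSA, which fell at GV, rose here (rho = 0.746, adjusted p = 0.0145), and the stalk proteins RPLP1 and RPLP2, which recruit elongation factors to the large subunit, rose with rho of 0.639 and 0.675. Low values were those of RPS4Y1 (rho = −0.888, adjusted p = 0.00250) and RPS4X (rho = −0.811, adjusted p = 0.00624). RPS4Y1 went from 101 and 123 CPM in F3 to 26.4 and 25.1 CPM in F10, with no overlap between F3 and F9 to F10. In F6 of gradient A, 57 of the core genes had their highest level of F3 to F10, against 1 in F6 of gradient B. RPS16, for example, was at 469 CPM in that library and at 75.8 CPM in gradient B. With gradient A alone no core gene was called rising or falling, 1 was falling with gradient B alone, and without its F6, a setting chosen after seeing the data, 23 rose.

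Across the 73 core genes tested at both stages, rho at MII and at the 2-cell stage had a Pearson r of 0.804, which describes these gradients only, since all genes share libraries. RPS2 and RPS29 were called rising at both stages (2.74% of the core genes tested at both, against 3.24% of all genes), and 4 genes, among them RPL17, RPS4X and RPS6, falling at both (5.48% against 4.74%).

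At the 8-cell stage nearly the whole family rose toward the polysomes: 66 core genes rose (38 of 43 of the large subunit, 28 of 31 of the small subunit) and 0 fell, where 6.42% of all genes rose and 8.65% fell. Median rho was 0.820, and all 74 values were positive, although that of RPSA turned to −0.0355 with library scaling factors made without ribosomal protein genes. RPS25 had the highest rho (rho = 0.959, adjusted p = 0.000877). It is a small subunit protein needed for initiation on some internal ribosome entry sites. Its levels in F3 to F10 were 63.2, 53.1, 68.1, 154, 130.4, 227, 346 and 649 CPM in A and 38.6, 57.1, 81.3, 123, 126, 246, 209 and 562 CPM in B. F10 exceeded every monosome fraction by several fold in both gradients. RPL14 (rho = 0.941, adjusted p = 0.000877) went from 40.1 to 503 CPM in A and from 59.2 to 540.1 CPM in B, and RPS15A (rho = 0.935, adjusted p = 0.000877) from 118 to 459 and from 54.5 to 576 CPM. The same 2 counts by edgeR, with a slope on fraction number, were 66 and 0, and at an unadjusted p below 0.05 the permutation test had 0 falling core genes.

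The 8 core genes not called at the 8-cell stage were RPSA, RPS4X, RPL7A, RPL12, RPLP0, RPL10, RPL5 and RPS6. RPSA had the lowest rho (rho = 0.0888, adjusted p = 0.865). It was at 3127 and 3144 CPM in F2, and over F3 to F10 it ranged from 884 to 1832 CPM without a trend that passed the test. RPS4X (rho = 0.136, adjusted p = 0.777) differed between the gradients: it was at 51.3, 19.5, 52.9, 35.1, 58.9, 51.2, 44.6 and 22.98 CPM in F3 to F10 of A, and reached 276 and 309.6 CPM in F9 and F10 of B. RPL7A, a large subunit protein, went from 669.9 to 506 CPM in A and from 579 to 1002 CPM in B (rho = 0.266, adjusted p = 0.525).

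Other mRNAs moved with the family in these gradients. Summed levels of the 8 mesenchymal markers were 85.7 and 22.7 CPM in F3 and 2811 and 1953 CPM in F10 of 8-cell gradients A and B, and the 9 oocyte markers went the other way, from 10896 and 10590 CPM in F3 to 2157 and 1083 CPM in F10. Trophectoderm and inner cell mass markers went from 229 and 145 to 521.0 and 604 CPM, and blood markers from 64.4 and 48.9 to 260.5 and 408 CPM in the same fractions, with 462 and 489 CPM in F8. Their part in the result was not tested. With F9 and F10 left out, a setting chosen after seeing the data, 47 core genes rose, and in F8 the mesenchymal markers summed to 243 and 1007.5 CPM. A single gradient of 8 libraries gave 28 rising core genes for B and 0 for A, although the polysome to monosome fold was above 1 in both. Of the 74 core genes, 44 (59.5%) rose at both GV and the 8-cell stage, against 390 of 10656 genes (3.66%).

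In morulae RPL3, at the peptidyl transferase centre, was the single core gene called (1 rising and 0 falling, against 0.887 and 0.629% of all genes). Its level went from 1452 to 3932 CPM in A and from 552 to 1961 CPM in B (rho = 0.852, adjusted p = 0.0150). F10 exceeded F3 by over 2-fold in both gradients. In blastocysts 2 core genes rose and 4 fell (6.10 and 1.75% of all genes). RPL27 rose from 394 and 432 CPM in F3 to 1119 and 1409.7 CPM in F10 (rho = 0.917, adjusted p = 0.00175), and RPS7 was the other (rho = 0.698, adjusted p = 0.0458). RPS19BP1 also rose (rho = 0.787, adjusted p = 0.0152). The falling genes included RPLP0 (rho = −0.870, adjusted p = 0.00410) and RPLP1 (rho = −0.781, adjusted p = 0.0172), both of the stalk, RPS2 (rho = −0.799, adjusted p = 0.0121) and RPL23A, near the tunnel exit (rho = −0.722, adjusted p = 0.0393). RPLP0 went from 14907 and 19806 CPM in F3 to 4002 and 5083 CPM in F10, so that its monosome and polysome fractions did not overlap. RPS2 and RPLP1 thus carried opposite signs at the 2-cell stage and in blastocysts. In morulae 8 core genes rose and 1 fell at an unadjusted p below 0.05, and the edgeR slope called 5 rising and 0 falling. With either gradient alone no core gene was called in morulae or in blastocysts.

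**Figure D2:**
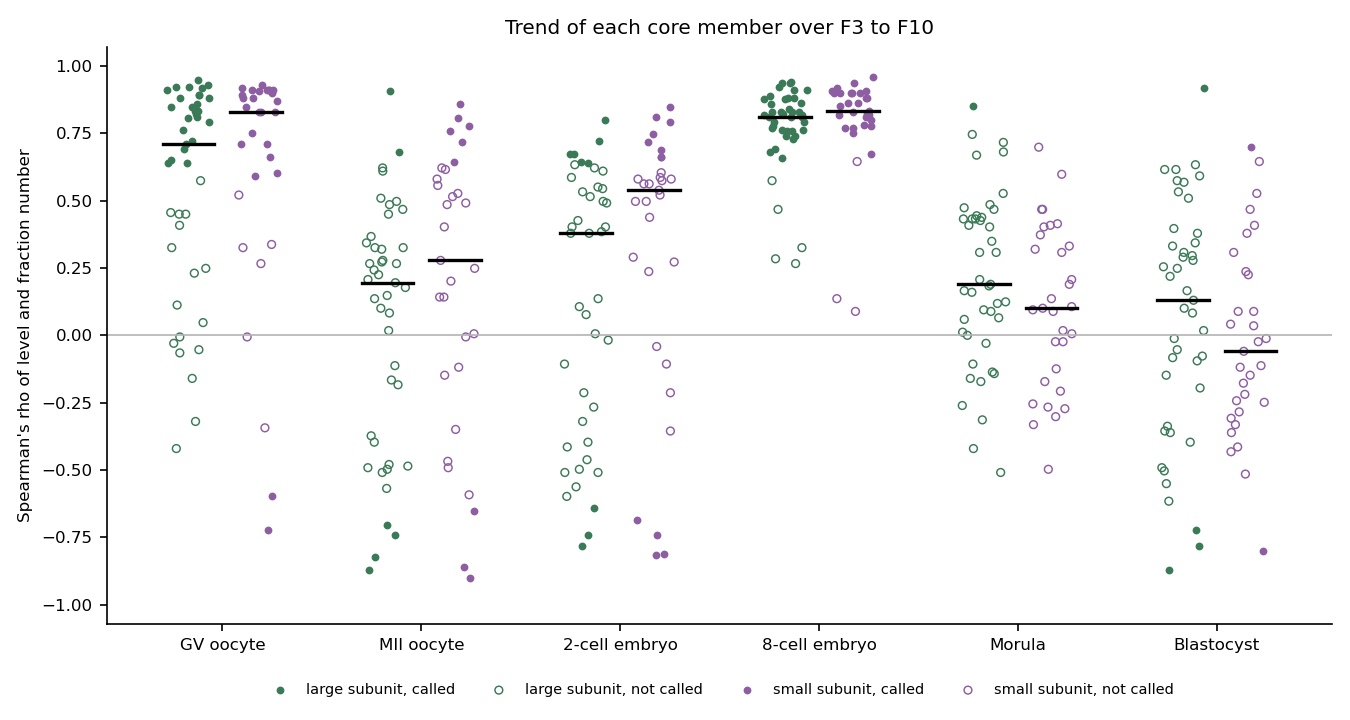
Spearman's rho between fraction number and level over F3 to F10 (y axis) for each core gene at each stage (x axis), split into large and small subunit, filled points being genes with an adjusted p below 0.05 and black bars the medians. At the 8-cell stage all points are above 0 and 66 of 74 are filled, whereas at MII and the 2-cell stage filled points lie on both sides of 0.

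How the transcriptome changed between successive stages was tested with edgeR's quasi-likelihood test over 14612 genes in a single model of 12 polysome pools (F8 to F10 of each gradient summed) and 18 transcriptomes, all 83 members included. Changes called have an adjusted p below 0.05 and over 2-fold, and values are log2 fold changes ± SE. Levels of pools and transcriptomes below are CPM scaled over these 30 libraries, and are not on the scale of the fraction levels above.

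From GV to MII, 1 core gene was higher and 18 were lower (6.61 and 10.5% of all genes). RPS2 was the one that rose (1.21 ± 0.24, adjusted p = 0.000720), from 121, 170.2 and 133 CPM to 342, 284 and 354 CPM in A, B and C, with no overlap. RPL26L1 rose too (1.35 ± 0.29, adjusted p = 0.00178), from 199, 340.1 and 273 to 802, 525 and 735 CPM. RPL18 fell the most among core genes (−2.15 ± 0.37, adjusted p = 0.000136), from 264, 476 and 332 to 99.5, 85.2 and 56.4 CPM, and RPS4X fell by a similar amount (−1.92 ± 0.44, adjusted p = 0.00247). RPS4Y1 fell further (−3.01 ± 0.28, adjusted p = 2.83e-08), from 338, 486 and 395 to 56.8, 54.7 and 39.8 CPM. The lower core genes numbered 14 of the large subunit and 4 of the small subunit, and 11 in all without GV transcriptome B or without MII transcriptome C. Without GV transcriptome B, 3 were higher.

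From MII to the 2-cell stage 58 core genes fell and 0 rose (5.96 and 6.0% of all genes). For 68 of 74 all 3 2-cell transcriptomes lay below all 3 of MII, a count not made over all genes. RPS19, the first gene found mutated in Diamond-Blackfan anaemia, fell the most (−4.77 ± 0.43, adjusted p = 1.24e-07), from 151, 115 and 82.4 CPM to 4.11, 3.28 and 5.34 CPM. RPL12, at the base of the stalk, went from 12.9, 12.98 and 17.7 to 0.380, 0.480 and 1.05 CPM (−4.49 ± 1.02, adjusted p = 0.00384), and RPS27 fell by a like amount (−3.92 ± 0.56, adjusted p = 3.14e-05). Median log2 fold change over the core was −1.60, against 0 over all genes tested. No core gene was over 2-fold higher at an unadjusted p below 0.05, nor called higher by DESeq2 or by edgeR's likelihood ratio test.

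From the 2-cell to the 8-cell stage 73 of 74 core genes rose and 0 fell (26.6 and 23.5% of all genes), with a median of 4.06 against 0.03 over all genes. In all 74 every 8-cell transcriptome lay above every 2-cell one, which was counted for core genes only. RPL38, a large subunit protein linked in mice to translation of Hox mRNAs, rose the most (7.84 ± 0.70, adjusted p = 3.21e-09), from 0.609, 0.560 and 0.978 CPM to 86.6, 215 and 195 CPM. RPS19 followed (7.19 ± 0.47, adjusted p = 3.47e-11), reaching 522, 759 and 579 CPM, above its level at MII. RPL7A was the gene not called, since its change stayed under 2-fold (0.91 ± 0.31, adjusted p = 0.0163). RPSA (1.09 ± 0.24, adjusted p = 0.000621) and RPS2 (1.65 ± 0.24, adjusted p = 5.42e-06) had the smallest called changes of the core. RPSA was at 535, 443 and 309.7 CPM at the 2-cell and 1104, 796 and 838 CPM at the 8-cell stage. The mesenchymal markers of the 8-cell transcriptomes rose over the same interval, to 17446 CPM in A, and their part in the result was not tested. No core gene was lower at an unadjusted p below 0.05 by edgeR, and none was called lower by DESeq2.

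From the 8-cell stage to morula 2 core genes rose and 0 fell (6.60 and 7.75% of all genes). At an unadjusted p below 0.05, and by DESeq2, 0 were over 2-fold lower. Yet 71 of 74 had a positive log2 fold change (median 0.54 against −0.05 over all genes). Of these genes 43 did not overlap, a count made for core genes only. RPL3 rose from 620.2, 507 and 522 to 1187, 1056 and 1083 CPM (1.01 ± 0.23, adjusted p = 0.00434), and RPL30, which binds kink-turns in its own transcript in yeast, was the other (1.06 ± 0.34, adjusted p = 0.0331). The count was 1 without 8-cell transcriptome A or C or morula transcriptome B, and 0 without morula transcriptome A. From morula to blastocyst 22 core genes rose and 0 fell (10.2 and 11.4%). Again 0 were over 2-fold lower at an unadjusted p below 0.05 and by DESeq2, which leaves out smaller declines. RPS28 rose from 391, 278 and 273 to 1389, 864 and 1288 CPM (1.91 ± 0.40, adjusted p = 0.00113). Of the 8 duplicates 3 fell, RPL7L1, RPS4Y1 and RPL26L1, and the others did not pass the test. RPL7L1 fell from 681, 688 and 799 to 122, 138.4 and 162 CPM (−2.36 ± 0.30, adjusted p = 3.92e-06), and RPS4Y1 from 503, 602 and 588 to 179, 134 and 126 CPM (−1.95 ± 0.27, adjusted p = 1.04e-05). The 22 became 14, 12 and 8 without morula transcriptome A, B and C in turn, and 12 without blastocyst transcriptome C.

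**Figure D3:**
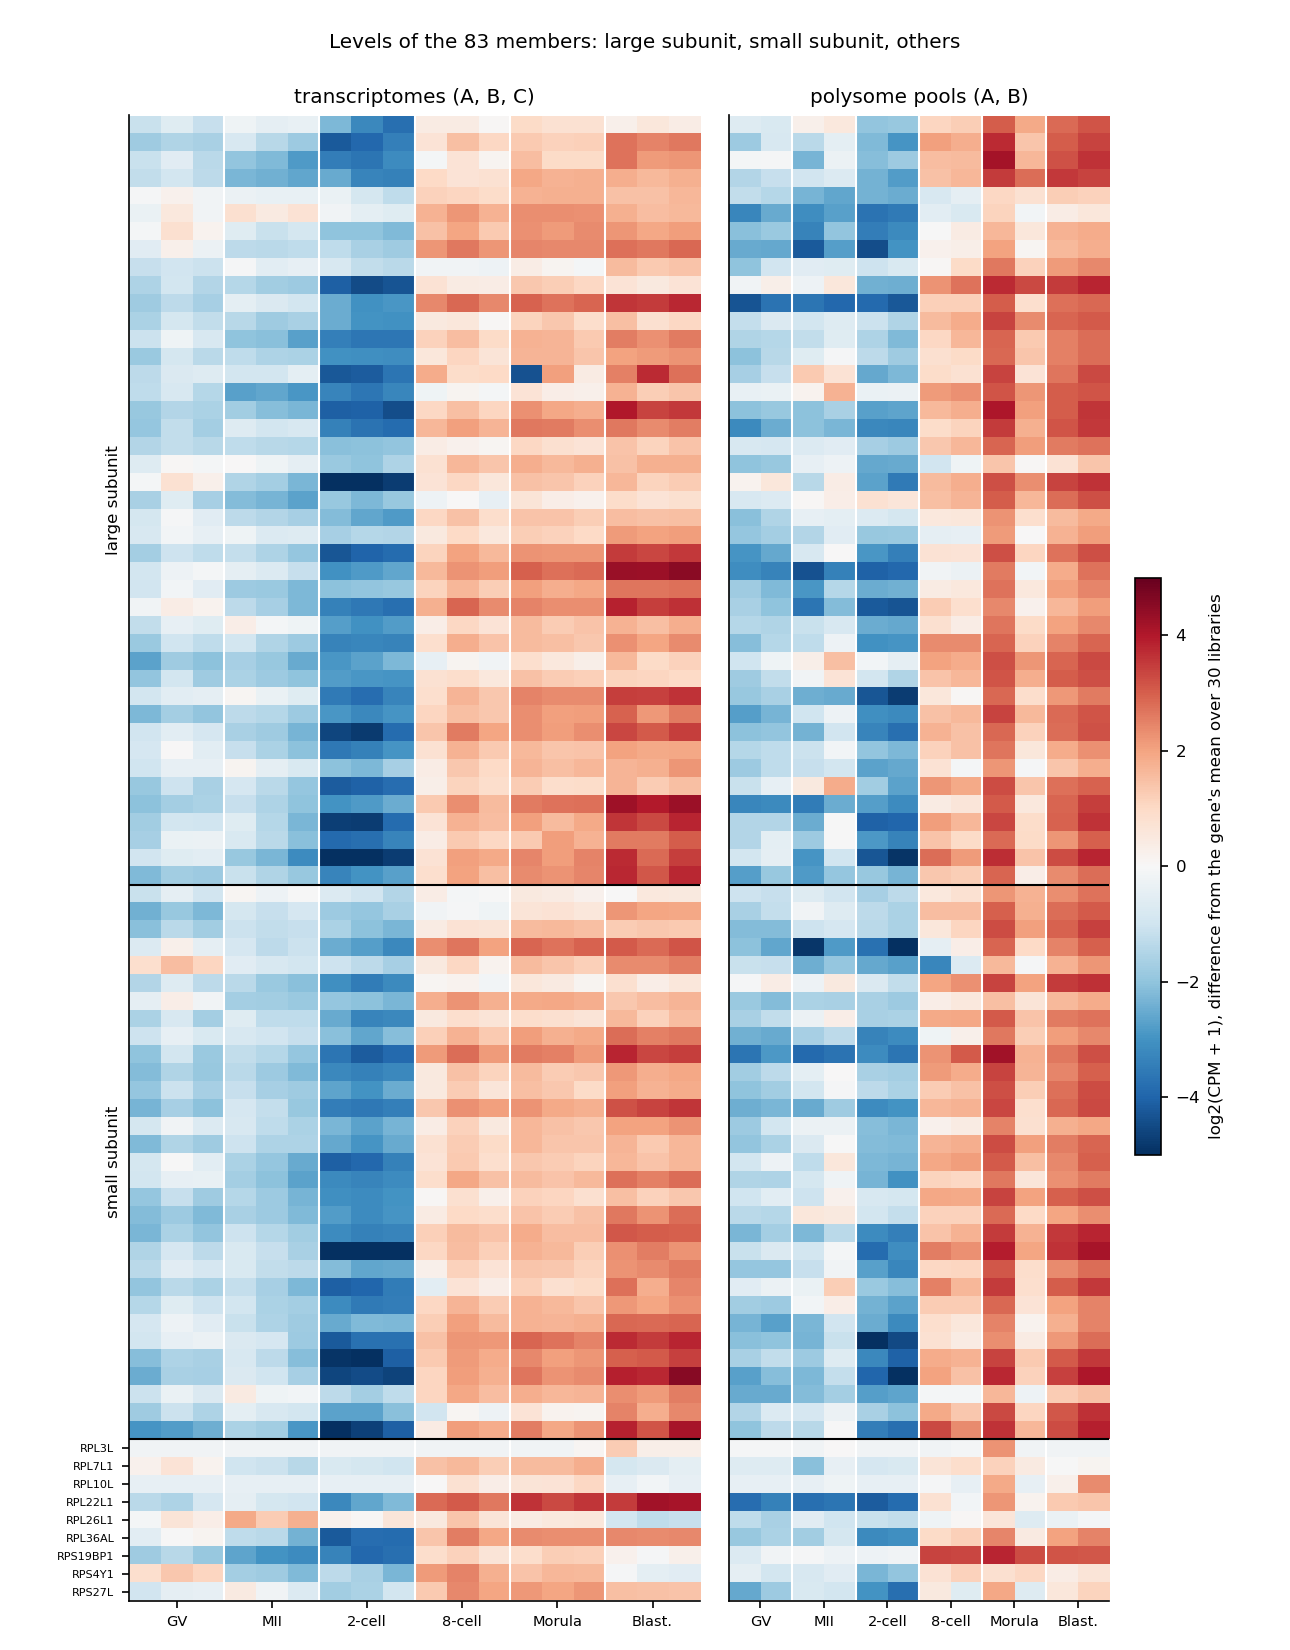
Heat map of the 83 members (rows: large subunit, small subunit, then duplicates and RPS19BP1) in the 18 transcriptomes and 12 polysome pools (columns), colour being log2(CPM + 1) minus the gene's mean over these 30 libraries. Almost all core rows change from low at GV, MII and 2-cell to high from the 8-cell stage, and the rows of RPL26L1 and RPS4Y1 do not follow them.

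The polysome pools were then compared with the transcriptome of the same stage. A positive value means that a gene took a larger share of the mRNA in F8 to F10 than in the unfractionated RNA, and calls have an adjusted p below 0.05. At GV 5 core genes were higher in polysomes and 24 lower (22.2 and 17.7% of all genes), at MII 30 and 15 (30.8 and 26.7%), at the 2-cell stage 28 and 11 (29.1 and 21.9%), at the 8-cell stage 25 and 17 (28.0 and 31.0%), in morulae 31 and 7 (26.5 and 25.2%) and in blastocysts 23 and 6 (20 and 20.1%). The share of core genes higher in polysomes was thus 6.76% at GV and between 31.1% in blastocysts and 41.9% in morulae at the later stages, and the share that was lower was 32.4% at GV and at most 23.0% afterwards. In the fit with all libraries the core leaned, relative to all genes, toward lower values at GV and toward higher values at the other stages. The lean did not hold at every stage when a single pool was left out.

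Several counts rested on a single library. At GV the 5 higher genes were 1 without pool B and 3 without transcriptome A or C, and the 24 lower genes were 15 without pool A. At MII the 30 higher genes were 13 without pool B, the gradient whose F10 stands apart. At the 2-cell stage the 11 lower genes were 6 without pool A or pool B. At the 8-cell stage the 25 higher genes were 13 and 16 without pool A and pool B, and 15 without transcriptome A or C. In morulae the 31 higher genes were 13 without pool A and 50 without pool B, and the 7 lower genes were 23 and 2, or 4 without any of the transcriptomes. In blastocysts the 6 lower genes were 0 without pool A and 3 without pool B or transcriptome C. With the size factors of DESeq2 the 8-cell split turned to 12 higher and 22 lower, the core median to −0.04 and the median of all genes to −0.50. Without scaling factors the splits were 9 and 24 at GV, 20 and 21 at the 8-cell stage, 25 and 11 in morulae and 17 and 13 in blastocysts.

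A few genes kept a single direction at all stages. RPL8, at the peptidyl transferase centre, and RPL28 were among the 3 core genes higher in polysomes at all 6 stages (4.05% of core genes against 9.92% of all genes), as was RPS19BP1. RPL28 had the highest value of the core at GV (1.59 ± 0.37, adjusted p = 0.00130), with 111 and 192 CPM in the pools and 34.2, 63.9 and 52.7 CPM in the transcriptomes. RPL8 was at 5649 and 7078 CPM in blastocyst pools against 806, 704 and 815 CPM (3.04 ± 0.27, adjusted p = 8.65e-09). RPL13 led at MII (3.91 ± 0.34, adjusted p = 8.68e-10), at 421 and 1229.7 CPM against 55.5, 60.4 and 49.01 CPM, and was also high at the 2-cell (3.11 ± 0.33) and 8-cell stage (2.27 ± 0.32). RPS19BP1 had 95.6 and 102 CPM in 2-cell pools and 10.4, 6.71 and 7.60 CPM in transcriptomes (3.58 ± 0.27, adjusted p = 3.27e-10). In each of these cases the pools lay above all 3 transcriptomes.

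RPL5, which carries the ribosomal RNA of the central protuberance together with RPL11 and binds MDM2 when free, was lower in polysomes at all 6 stages (1.35% of core genes against 5.78%). Its log2 difference was −2.95 ± 0.35 at GV, −3.59 ± 0.36 at MII, −3.23 ± 0.35 at the 2-cell stage, −2.55 ± 0.34 at the 8-cell stage, −1.70 ± 0.33 in morulae and −1.18 ± 0.32 in blastocysts. At MII the pools were at 46.8 and 61.7 CPM and the transcriptomes at 722, 563 and 682 CPM. RPL22L1 was lower at all stages too, with 0.883 and 1.57 CPM in GV pools against 9.57, 8.20 and 13.99 CPM. RPL23A was among the lowest at GV (−2.997 ± 0.53, adjusted p = 7.44e-05), MII (−3.30 ± 0.54, adjusted p = 1.53e-05) and in blastocysts (−2.02 ± 0.50, adjusted p = 0.00248), RPS27L at the 2-cell stage (−2.08 ± 0.55, adjusted p = 0.00280) and RPL7 in morulae (−1.06 ± 0.45, adjusted p = 0.0495). RPL5 had risen along F3 to F10 at GV while lying below the transcriptome in the pool, so the 2 measures order this mRNA differently. RPL23A values were not whole in any library, as Salmon gives where reads are divided among similar sequences.

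**Figure D4:**
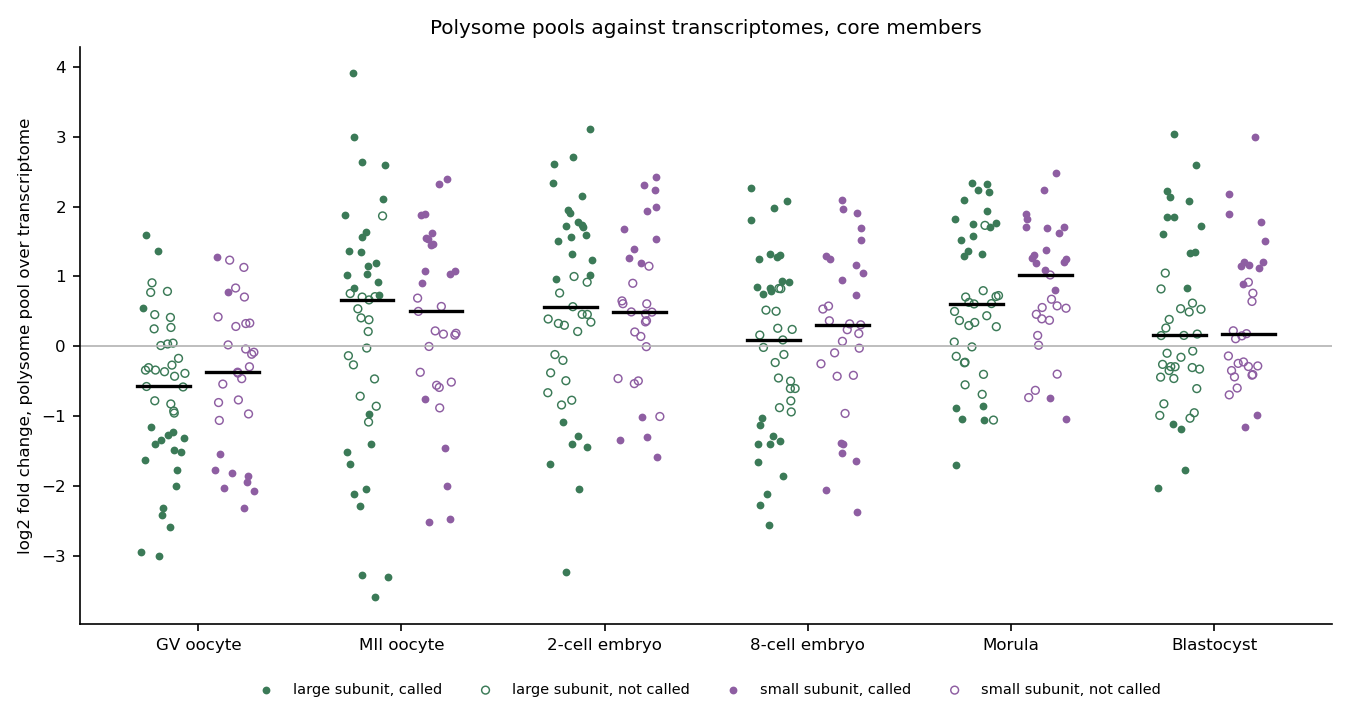
Log2 difference between polysome pool and transcriptome (y axis) of each core gene at each stage (x axis), by subunit, filled points being genes with an adjusted p below 0.05 and black bars the medians. The core genes spread to both sides of 0 at every stage, from −2.55 for RPL5 to 2.27 for RPL13 at the 8-cell stage.

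Polysome pools of successive stages, called as for the transcriptome, changed as follows. From GV to MII 14 core genes rose and 1 fell (3.03 and 2.33% of all genes), from MII to 2-cell 0 rose and 42 fell (3.37 and 5.14%), from 2-cell to 8-cell 72 rose and 0 fell (21.0 and 25.2%), from 8-cell to morula 38 rose and 0 fell (18.5 and 17.7%), and from morula to blastocyst 0 rose and 0 fell (5.79 and 8.12%). At over 2-fold, the counts of 0 were also 0 at an unadjusted p below 0.05 and called by DESeq2 and the likelihood ratio test. Among the called genes RPL23 rose most at MII (2.46 ± 0.46, adjusted p = 0.00238), from 20.9 and 27.3 to 95.9 and 169 CPM, and RPL4 was the one that fell (−1.13 ± 0.25, adjusted p = 0.00936). The 14 became 0 without GV pool A, 3 without GV pool B and 5 without MII pool B. The single lower gene was 0 without GV pool A and 2 without MII pool B. The decline at the 2-cell stage was led by RPL12 (−3.75 ± 1.13, adjusted p = 0.0383) and RPL38 (−3.67 ± 0.69, adjusted p = 0.00182), and the 42 became 20, 27 and 17 without MII pool B, 2-cell pool A and 2-cell pool B.

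The rise at the 8-cell stage was led by RPL38 (7.90 ± 0.83, adjusted p = 9.37e-08), from 1.70 and 0.739 to 360.2 and 226 CPM, RPS27 (6.66 ± 0.75, adjusted p = 2.44e-07) and RPS29 (6.64 ± 0.76, adjusted p = 3.02e-07), both small zinc-binding proteins of the small subunit. RPL26L1 had the smallest rise called among the 83 members (1.13 ± 0.36, adjusted p = 0.0128). RPS4X rose most from 8-cell to morula (2.45 ± 0.54, adjusted p = 0.00134), yet its pools were at 38.3 and 234 CPM at the 8-cell stage and at 1137 and 354 CPM in morulae, far apart within each stage. The 38 became 19 without 8-cell pool A, 5 without morula pool A and 67 without morula pool B, and from morula to blastocyst 49 rose without morula pool A.

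Whether polysome and transcriptome changes differed was tested as an interaction. From GV to MII the polysome change exceeded that of the transcriptome for 17 core genes and fell short of it for 0 (7.14 and 3.50% of all genes), 10 of the large and 7 of the small subunit. RPL13 differed most (3.12 ± 0.47, adjusted p = 8.11e-05): its pools went from 285 and 292 to 421 and 1229.7 CPM while its transcriptomes went from 152, 214 and 136 to 55.5, 60.4 and 49.01 CPM. RPS4Y1 was alike (2.99 ± 0.42, adjusted p = 3.50e-05), with pools at 139 and 99.00 and 106 and 129 CPM beside the falling transcriptome. The 17 became 9 to 11 without any of GV pool A, GV pool B, GV transcriptome B, MII pool B, MII transcriptome B and MII transcriptome C. By DESeq2 1 gene fell short, and 2 had an unadjusted p below 0.05.

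Later intervals gave few calls. From MII to 2-cell 1 core gene was higher and 0 lower (0.725 and 1.08%; 2 lower at an unadjusted p below 0.05; DESeq2 called 3 higher and 1 lower). It was RPS9 (3.08 ± 0.70, adjusted p = 0.0242), a small subunit protein affecting fidelity, with pools at 5.15 and 6.01 and then 9.28 and 6.25 CPM and transcriptomes at 37.7, 32.4 and 22.8 and then 6.16, 3.997 and 5.11 CPM, and it was lost without MII pool A, MII pool B, MII transcriptome A, 2-cell pool A, 2-cell transcriptome B or 2-cell transcriptome C. RPS4Y1 was lower (−1.69 ± 0.41, adjusted p = 0.0358). From 2-cell to 8-cell 2 were higher and 6 lower (3.45 and 8.71%). RPL19, which forms a bridge between the subunits, had the lowest value of the called core genes (−2.34 ± 0.45, adjusted p = 0.00163): pools went from 341 and 294 to 792 and 813 CPM and transcriptomes from 121, 89.4 and 76.6 to 1123, 1521 and 1017 CPM. RPS2 was the highest (1.35 ± 0.38, adjusted p = 0.0210). The 6 became 2 without 2-cell pool A, 2-cell transcriptome B, 8-cell pool A or 8-cell transcriptome B and 3 without 2-cell transcriptome A or C, and the 2 became 0 without 2-cell pool B and 1 without 2-cell pool A, 2-cell transcriptome A or B, 8-cell pool B or 8-cell transcriptome B or C. With the size factors of DESeq2 in edgeR 1 was higher and 6 lower.

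From 8-cell to morula 1 core gene was higher in polysomes, where 7.05 and 5.41% of all genes were higher and lower. The count was 0 without 8-cell pool A or morula pool A, 4 without 8-cell pool B and 35 without morula pool B. None was lower, also at an unadjusted p below 0.05, and 1 was without morula pool A. From morula to blastocyst 0 were higher and 1 lower (6.04 and 6.23%; 1 higher at an unadjusted p below 0.05). RPL13A (−1.67 ± 0.51, adjusted p = 0.0344), released from the ribosome to silence inflammatory mRNAs in interferon-treated cells, went from 1577 and 398 to 788 and 1145 CPM in pools and from 469, 373 and 341 to 1549.6, 1016 and 1122 CPM in transcriptomes. Without morula pool B 16 were lower, and without morula pool A 8 were higher and 0 lower. RPL13A was also lost without morula transcriptome B or C, either blastocyst pool or blastocyst transcriptome A. Without scaling factors 1 was higher and 1 lower. RPL7L1 (1.57 ± 0.45, adjusted p = 0.0250) and RPS4Y1 (1.55 ± 0.41, adjusted p = 0.0164) were higher, their transcriptome levels falling more than their polysome levels.

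The large and the small subunit were compared by their sums and medians. The ratio of summed counts of the 43 large to the 31 small subunit genes in the transcriptomes was 1.21 ± 0.0183 at GV, 1.13 ± 0.0177 at MII, 1.09 ± 0.00422 at the 2-cell stage, 1.11 ± 0.0478 at the 8-cell stage, 1.17 ± 0.0301 in morulae and 1.02 ± 0.0421 in blastocysts (mean ± SD, n = 3). Gene length enters this ratio, so only its movement between libraries can be read. It moved more in the gradients: F3 to F5 held 1.27, 1.41, 1.70, 1.19, 0.987 and 1.03 and F8 to F10 held 1.31, 1.32, 1.44, 1.11, 1.2 and 1.04 over the 6 stages in order (means of 2 gradients). Medians of the polysome to transcriptome difference were −0.57 for the large and −0.37 for the small subunit at GV, 0.66 and 0.50 at MII, 0.57 and 0.49 at the 2-cell stage, 0.09 and 0.31 at the 8-cell stage, 0.61 and 1.02 in morulae and 0.16 and 0.18 in blastocysts. Which subunit was higher changed from stage to stage. No test was run on these medians because genes are not replicates.

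The stalk is the part of the large subunit with several copies of its proteins. RPLP0, its base, was at 519.5, 439 and 465 CPM in MII transcriptomes, 124, 62.3 and 42.2 CPM at the 2-cell and 793, 784 and 612 CPM at the 8-cell stage. RPLP1 was at 12.7, 15.6 and 22.4 CPM and then 395, 696 and 515 CPM, and RPLP2 at 13.2, 11.3 and 16.6 CPM and then 144, 248 and 167 CPM, both without overlap. From morula to blastocyst RPLP0 went from 1147, 1001 and 998 to 716, 881 and 773 CPM whereas RPLP1 went from 617, 559.5 and 564 to 1619.9, 1372 and 1533 CPM. In the blastocyst pools RPLP0 stood at 4213 and 5301 CPM, several times its transcriptome level. Along F3 to F10 of these gradients it fell (rho = −0.870), with higher levels in F3 than in F10, so a high level was not particular to the polysome fractions.

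Relative to their core partners, 5 duplicate genes changed in level between stages. They differed in how closely they followed the median core gene over all libraries (Pearson r of log2 CPM). This r was 0.882 for RPL36AL and 0.855 for RPS27L, and 0.403 for RPL26L1, 0.358 for RPS4Y1 and 0.311 for RPL7L1. The ratio of copy to partner is given as log2 of the CPM ratio (mean ± SD of 3 transcriptomes). It holds gene length, so its change is what can be read. RPL26L1 over RPL26, a pair of ribosomal protein genes with nearly the same protein, was 1.45 ± 0.10 at GV, 4.72 ± 0.57 at MII, 5.33 ± 0.47 at the 2-cell stage, −0.27 ± 0.21 at the 8-cell stage, −0.60 ± 0.16 in morulae and −3.49 ± 0.04 in blastocysts. RPL26 rose from 7.61, 6.63 and 5.57 CPM at the 2-cell stage to 1276, 983 and 1117 CPM in blastocysts, while RPL26L1 went from 247, 225 and 326 to 114, 89.1 and 96.5 CPM, so that the order of the pair turned. In the polysome pools the ratio went from 4.68 ± 0.01 at the 2-cell stage to −0.83 ± 0.16 in blastocysts (n = 2). RPL26 had values that were not whole in 65.9% of libraries.

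RPL7L1, a nucleolar relative of RPL7, over RPL7 was 0.43 ± 0.18 at the 2-cell stage and −3.70 ± 0.18 in blastocysts, and its mean in the polysome pools was higher than in the transcriptomes at each stage, for example 2.02 ± 0.12 against −0.10 ± 0.23 at MII. RPS27L over RPS27 went from 3.83 ± 0.51 at the 2-cell stage to 0.50 ± 0.06 at the 8-cell stage and −2.36 ± 0.45 in blastocysts. RPS4Y1 over RPS4X was −2.16 ± 0.17 at MII, 0.58 ± 0.10 at the 8-cell stage and −3.80 ± 0.35 in blastocysts. RPL36AL over RPL36A was 1.62 ± 0.10 at GV, −1.56 ± 0.25 at the 2-cell stage and −1.84 ± 0.14 in blastocysts. All 5 ratios were lowest in blastocysts among the 6 stages, and the highest stage was the 2-cell stage for RPL26L1, RPL7L1 and RPS27L, the 8-cell stage for RPS4Y1 and GV for RPL36AL. RPL3L, a striated muscle copy of RPL3, was at 0 in 110 of the libraries and stood at 1.76, 0.415 and 0.400 CPM in the blastocyst transcriptomes. RPL10L, a testis copy of RPL10, was at 0 in 102 libraries and at 0.343, 1.25 and 0.696 CPM in the 8-cell and 1.12, 1.16 and 1.72 CPM in the morula transcriptomes.

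**Figure D5:**
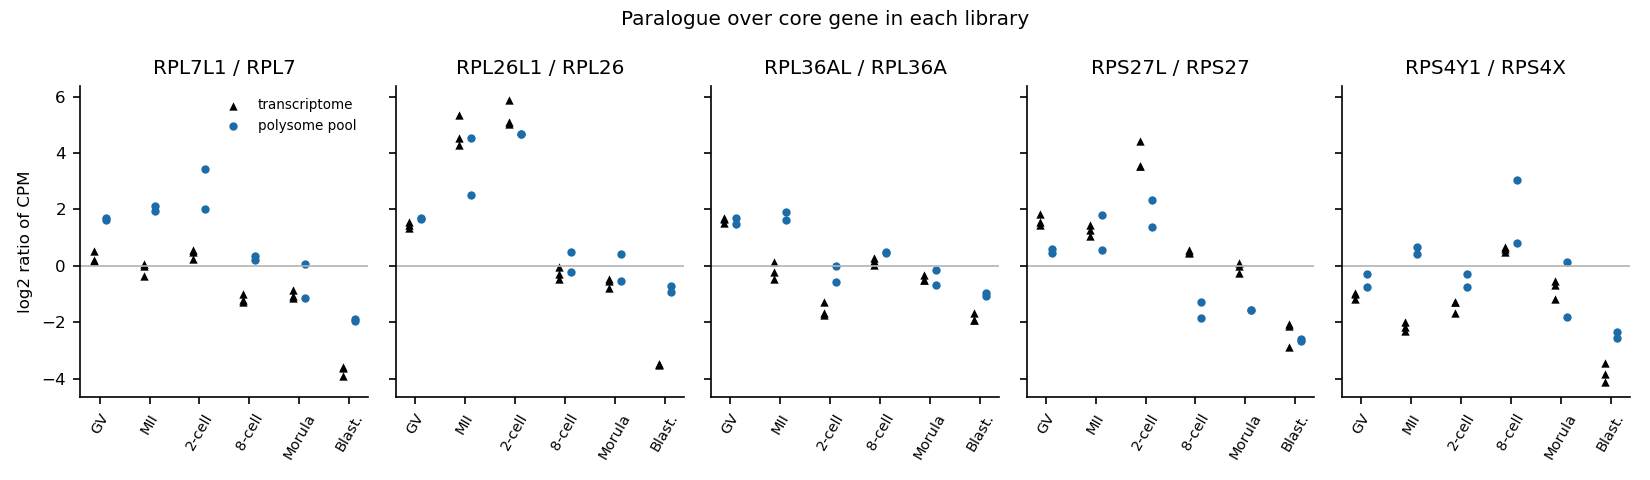
Log2 CPM ratio of 5 duplicate genes to their core partners (y axis) by stage (x axis), points being single transcriptomes or polysome pools. RPL26L1 over RPL26 climbs to 5.33 at the 2-cell stage and is down to −3.49 in blastocyst transcriptomes, and all 5 pairs end lowest in blastocysts.

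To find the genes that departed most from the family, the median core profile over the 6 stages was taken from each gene's centred log2 profile and the root mean square deviation computed. It was 0.588 at the median core gene in the transcriptomes and 0.758 over the fractions. The 8 highest in the transcriptomes were RPL26L1 (2.34), RPL3L (1.80), RPL10L (1.68), RPL12 (1.65), RPL7L1 (1.59), RPS4Y1 (1.55), RPSA (1.42) and RPS29 (1.26). Over the fractions they were RPL3L (2.11), RPS4Y1 (1.90), RPL7L1 (1.85), RPL10L (1.80), RPL26L1 (1.65), RPS4X (1.51), RPS9 (1.48) and RPS29 (1.47), so 6 genes were on both lists. RPL3L and RPL10L were at 0 in 110 and 102 of the libraries. They were at most at 1.76 and 1.72 CPM in any transcriptome, and at 4.48 and 5.96 CPM in any polysome pool. Their profile in the transcriptomes was thus nearly flat while that of the family rose. With a pseudocount of 0.1 CPM, 7 of the 8 genes of the transcriptome list stayed on it, and 5 of the 8 over the fractions. RPL26L1 lay 2.77 above the family at the 2-cell stage and 3.85 below it in blastocysts. RPSA lay 2.05 above at the 2-cell stage and 1.81 below in blastocysts, where its transcriptomes stood at 862, 1224 and 1197 CPM, near the 1104, 796 and 838 CPM of the 8-cell stage. RPS29 went the other way, from 1.47 below at GV to 1.72 above in blastocysts. RPS4X over the fractions lay 2.05 below at the 8-cell stage. The deviation of RPL12 rested in part on morula transcriptome A, where it stood at 0.280 CPM against 107 and 33.7 CPM in B and C, and its values were not whole in 98.6% of libraries.

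Other genes of the translation machinery were followed for comparison. Further TOP mRNAs, among them those of elongation factors and initiation factor 3, were listed by 22 symbols, with RACK1 also under its older symbol GNB2L1. Of these symbols 21 were in the table. In the transcriptomes 5 of the 21 rose and 5 fell from GV to MII (6.61 and 10.5% of all genes), 2 and 8 from MII to 2-cell (6.0 and 5.96%), 16 and 0 from 2-cell to 8-cell (26.6 and 23.5%), 2 and 0 from 8-cell to morula (6.60 and 7.75%), and 2 and 6 from morula to blastocyst (10.2 and 11.4%). Their median log2 fold change was −0.96 from MII to 2-cell and 2.09 from 2-cell to 8-cell, against −1.60 and 4.06 over the core and 0 and 0.03 over all genes. RACK1, a scaffold on the small subunit, rose by 7.04 and EEF1B2, an elongation factor subunit, by 4.93 on the log2 scale at the 8-cell stage. From MII to 2-cell RACK1 and TPT1 fell the most, by 2.93 and 2.499. Their trend over F3 to F10 was rising for 9 and falling for 4 at GV (18.1 and 18.6% of all genes) and rising for 8 and falling for 0 at the 8-cell stage (6.42 and 8.65%), among them FAU (rho = 0.85), whose product is a ubiquitin-like protein fused to a small subunit protein. In polysomes against the transcriptome 2 were higher and 12 lower at GV (22.2 and 17.7% of all genes), from −5.14 for NPM1 to 3.25 for EEF2. At MII the counts were 6 and 11 (30.8 and 26.7%), and at the 2-cell stage 8 and 11 (29.1 and 21.9%). They were 4 and 11 at the 8-cell stage (28.0 and 31.0%), 7 and 7 in morulae (26.5 and 25.2%) and 7 and 8 in blastocysts (20 and 20.1%). Their medians were −0.77, −1.04, −1.12, −1.06, −0.47 and −0.36 over the stages in order. The core had −0.41, 0.55, 0.53, 0.21, 0.69 and 0.17, and the difference was not tested.

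The 77 genes of mitochondrial ribosomal proteins, which serve the ribosome inside mitochondria, were followed in the same way. From GV to MII 0 rose and 38 fell (6.61 and 10.5% of all genes), from MII to 2-cell 10 and 20 (6.0 and 5.96%), from 2-cell to 8-cell 38 and 5 (26.6 and 23.5%), from 8-cell to morula 15 and 0 (6.60 and 7.75%), and from morula to blastocyst 2 and 26 (10.2 and 11.4%), where the cytosolic core had 22 and 0. The difference between the 2 families was not tested. Their median was −1.10 from GV to MII, 1.15 from 2-cell to 8-cell and −0.65 from morula to blastocyst, against −0.10, 4.06 and 0.73 over the core. MRPL28 fell by 4.13 from GV to MII, and MRPL12 rose by 5.16 at the 8-cell stage. Over F3 to F10, 29 rose and 10 fell at GV (18.1 and 18.6% of all genes), 22 and 2 at the 8-cell stage (6.42 and 8.65%) and 18 and 0 in blastocysts (6.10 and 1.75%), where 2 cytosolic core genes rose. Of 23 assembly and nuclear import factors of ribosomal subunits, 11 rose and 4 fell from 2-cell to 8-cell, with EIF6 and IPO5 up by 4.59 each and NMD3, which exports the large subunit, down by 2.09, and 0 rose and 9 fell from morula to blastocyst. Of 17 regulators of TOP mRNAs, 6 rose and 3 fell at the 8-cell stage and 1 rose and 5 fell in blastocysts. LARP1 was the one that rose in blastocysts, by 2.66, while EIF4EBP1, a translational repressor under mTOR, fell by 2.23.

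Finally, the genes outside the family whose level over all fraction and transcriptome libraries followed that of the median core gene most closely were listed as a description (Pearson r of log2 CPM, 12929 genes). Among the 10 closest were COX6B1 (0.966), SSR4 (0.962), NPAS2 (0.960), ATP5ME (0.955), UQCR10 (0.954), UQCR11 (0.946), NDUFA4 (0.944), ZC3H10 (0.943) and TMSB10 (0.942). COX6B1, ATP5ME, UQCR10, UQCR11 and NDUFA4 code for small subunits of respiratory chain complexes or of ATP synthase, and SSR4 for a translocon subunit. Of the 100 genes with the highest r 54 were members. The median core gene had r = 0.934, and RPL4 had the lowest of the core (0.586). The libraries share stages and depth, which enter every r.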

How the data were processed

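Total RNA of sucrose gradient fractions and of unfractionated samples had been made into Smart-seq and Nextera XT libraries, which do not keep strand. The authors quantified reads with Salmon (version not given in the sources used here) and deposited expected counts per gene symbol, estimated counts that need not be whole, for all libraries. The paper names the ARS-UCD1.2 Ensembl annotation and the submitters' processing notes name UMD3.1. The authors compared libraries with edgeR. Groups and replicate letters were read from the sample titles, 0 columns lacked a sample and 0 pairs of libraries held identical values. Members were matched by symbol to RefSeq (83 of 83).

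The deposited counts were rounded for count tests. The members, gene lists and tests were chosen with earlier results of these data known. Polysome pools summed F8 to F10 of each gradient. A single edgeR 4.0.16 (R 4.3.3) quasi-likelihood model with trimmed mean of M values (TMM) factors and the default expression filter took 30 libraries in 12 groups and 14612 genes, with Benjamini-Hochberg adjustment and a threshold of 0.05, and of 2-fold between stages. Trends were Spearman permutation tests (scipy 1.17.1, 100000 permutations) over genes with a mean of at least 1 CPM, and over single gradients of 8 libraries they were exact. Deviations used a pseudocount of 1 CPM. Alternatives were DESeq2 1.42.0, edgeR's likelihood ratio test, other size factors, filters, pseudocounts and fraction sets, a replicate block, and leaving out each library. Tests were checked on simulated data.

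Named genes were the 3 highest and 3 lowest called members per comparison, the 3 lowest 8-cell trends, the 8 most deviating genes of each kind, duplicate pairs, RPLP0, RPLP1, RPLP2, RPSA and RPS19BP1, 2 genes at each end of the other lists, and the 10 outside genes most alike. Genes named beyond this were chosen after their values were seen. Gene lengths were not used, so the share of counts of a gene also reflects its length. Total counts set the counting error, which is larger for the shallow morula and blastocyst fractions, and amplified reads are not independent molecules. Results on some single genes are not reported here.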

Additional observations from a re-analysis of the deposited data

Results flagged for a closer look

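The interaction term tests whether the polysome pools and the transcriptomes changed by different amounts between stages (edgeR quasi-likelihood test, adjusted p below 0.05). From GV to MII it called 17 core genes, 23.0% of the core and all higher, against 7.14% of all genes higher and 3.50% lower. From MII to 2-cell it called 1 (0.725 and 1.08% of all genes). From 2-cell to 8-cell it called 8, or 2.70% of the core higher and 8.11% lower, near the 3.45 and 8.71% of all genes. From 8-cell to morula it called 1 (7.05 and 5.41% of all genes), and from morula to blastocyst 1 (6.04 and 6.23%). RPL13 changed by 3.12 more in polysomes than in the transcriptome from GV to MII on the log2 scale, and RPS4Y1 by 2.99 more. RPS9 changed by 3.08 more from MII to 2-cell, where RPS4Y1 had −1.69. RPL19 had −2.34 and RPS2 1.35 from 2-cell to 8-cell. From morula to blastocyst the values were 1.57 for RPL7L1, 1.55 for RPS4Y1 and −1.67 for RPL13A. The pools come from 2 gradients per stage, and the counts change when a single pool is left out, that of GV to MII to 9, 11 and 10 without GV pool A, GV pool B and MII pool B.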

How the results depend on the processing

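Of the counts and ratios that answer a comparison, 301 of the values recomputed under alternatives stayed within 1.5 times (or 1 SD) of the reported one and 108 moved beyond it, mostly on leaving out a library. The cause was not tested except where fewer libraries entered. Core genes higher in polysomes than in the transcriptome at the 8-cell stage went from 25 to 12 with DESeq2, 12 with its size factors in edgeR and 15 with pools of F9 and F10. Transcriptome rises from 8-cell to morula went from 2 to 0 with DESeq2, with its size factors and without scaling factors. Polysome rises went from 14 to 8 from GV to MII and from 38 to 15 from 8-cell to morula without scaling factors. The first was also 8 with the MII pool of gradient B made without F10, a setting added after seeing the data, under which the interaction counts were 11 in place of 17 from GV to MII and 2 in place of 1 from MII to 2-cell. The latter was 3 with DESeq2 and 3 with the likelihood ratio test. Interactions below 0 from 2-cell to 8-cell went from 6 to 2 without a filter on low counts and to 2 with pools of F9 and F10. From 8-cell to morula the 1 became 4 with DESeq2 and 0 without scaling factors, and from morula to blastocyst the 1 became 0 with pools of F9 and F10. Scaling shifted the median of all genes by −0.24 at most among DESeq2's size factors (polysomes against transcriptome, 8-cell) and by 0.46 without factors (transcriptome, MII to 2-cell).

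For the trend over fractions, including F1 and F2 changed the rising core genes from 49 to 5 at GV, 8 to 0 at MII, 14 to 0 at 2-cell, 66 to 28 at 8-cell and 1 to 2 in morulae, and the falling ones from 4 to 8 in blastocysts. An edgeR slope on fraction number gave 16 at MII, 7 at 2-cell, 5 in morulae and 8 falling in blastocysts. A minimum of 10 CPM gave 2 in morulae, and leaving out F6 of 2-cell gradient A, added after seeing the data, gave 23. Reversed signs occurred for RPL26L1 at MII with F1 to F10 (rho = −0.0694), and at the 8-cell stage for RPSA with TMM factors made without ribosomal protein genes (−0.0355), with the edgeR slope (−0.00743) and without gradient B (−0.190), for RPS4X without gradient B (−0.167), and for RPL7A with F1 to F10 (−0.0966) and without gradient B (−0.476). Without gradient A the values of RPSA, RPS4X and RPL7A were 0.405, 0.619 and 0.738. The large over small subunit ratio taken from median CPM was 0.918, 0.701, 0.742, 0.800, 0.937 and 0.810 over the stages in order, and over all members it was 1.27 at MII and 1.23 at 2-cell. With a pseudocount of 0.1, 5 of the 8 most deviating genes over fractions were the same.

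Leaving out a library gave these ranges of counts. Polysomes against transcriptome: 15 to 26 lower at GV, and higher 13 to 30 at MII, 22 to 28 at 2-cell, 13 to 24 at 8-cell, 13 to 50 in morulae and 16 to 21 in blastocysts. Transcriptome change: 11 to 16 and 47 to 57 lower up to 2-cell, then 72 to 74, 0 to 2 and 8 to 20 higher. Polysome change: 0 to 14 higher, 17 to 43 lower, then 71 to 73, 5 to 67 and 0 to 49 higher. Interaction: 9 to 21 and 0 to 1 higher, 2 to 8 lower, 0 to 35 higher and 0 to 16 lower. Rising trend: 12 to 47 at GV, 0 to 8 at MII, 0 to 14 at 2-cell, 0 to 28 at 8-cell and 0 to 0 in morulae, and 0 to 0 falling in blastocysts. Subunit ratio: 1.2 to 1.22, 1.13 to 1.14, 1.09 to 1.09, 1.08 to 1.13, 1.16 to 1.19 and 0.996 to 1.04. A pool or transcriptome group left with fewer libraries was assumed to vary like the others.

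Gradients and transcriptomes came from the same batches, but the sources do not say which letters share a batch, and deviations of same-lettered libraries from their group means had correlations of −0.0687 to 0.0355, so the letters were not used as pairs. A fit with the letter as a replicate block kept 59 of 61 calls of named genes. Ranking fractions within each gradient, as a block, gave 62 rising core genes at 8-cell, 14 in place of 8 at MII, 24 in place of 14 at 2-cell and 4 in place of 1 in morulae.

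Depth limits the shallow morula and blastocyst fractions, and each stage had only 2 gradients. Single-gradient trends rest on 8 libraries. Reads shared among copies limit 34 members, and the morula pools rest on gradients that differ in ribosomal protein content.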
